A study of Homo sapiens with 16 samples.

Results

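The genes described here are 44 genes of DNA replication and of the G1/S transition, taken by name from the 60675 gene identifiers counted in 16 RNA libraries of H9 cells. H9 is an established human embryonic stem cell line, and these cells carry EGFP driven by the REX1 promoter. All groups grew without feeder cells and were transfected with siRNA, so none is untreated. SALL4 siRNA and VRTN siRNA cells were harvested at 48 h, and DSCC1 siRNA and SEPHS1 siRNA cells at 72 h (n = 3 libraries each). The controls were a Control siRNA and an siRNA against Renilla luciferase (n = 2 libraries each), for which the labels give no harvest time. Enzymatically made siRNA pools were used for SALL4, for DSCC1, for SEPHS1 and for luciferase, and a synthetic siRNA for VRTN. All libraries are from this 1 reporter line, and the labels call the replicates biological. SALL4 encodes a zinc finger transcription factor of stem cells, VRTN (vertnin) a DNA-binding protein, DSCC1 a subunit of the CTF18 clamp loader that acts at the replication fork, and SEPHS1 a selenophosphate synthetase-like protein.

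A cell copies its genome once per cycle. In G1 the origin recognition complex (ORC1 to ORC6), CDC6 and CDT1 load the MCM2 to MCM7 helicase onto origins, and geminin (GMNN) binds CDT1 and stops further loading once S phase begins. CDC45, the GINS complex and MCM10 turn the loaded helicase on, DNA polymerase alpha with its primase starts each new strand, and polymerases epsilon and delta extend it. Many of these genes are transcribed in late G1 by E2F factors, which cyclin E and its kinase release from the RB family of repressors. Embryonic stem cells have a short G1 phase and keep these genes highly transcribed.

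The members fell into 15 licensing genes, 7 genes of helicase activation and the fork, 9 of the polymerases, 5 of lagging strand maturation and single-strand binding, 4 G1/S regulators and 4 of nucleotide supply. The promoters below are shown because they carry the E2F and CCAAT letters of genes to which the results return: POLA1, RRM2, MCM10 and MCM7 had, with MCM5, the smallest p of the members in SALL4 siRNA cells, MCM6 split the SALL4 siRNA libraries, and E2F1 is itself an E2F gene. The sequences are from RefSeq (GRCh38.p14), on the gene's strand, 5′ to 3′, and capitals mark TTTCCCGC, TTTCGCGC, TTTGCCGC or TTTGGCGC (E2F letters) and CCAAT, read on either strand.
POLA1, chrX:24693768-24693917, plus strand: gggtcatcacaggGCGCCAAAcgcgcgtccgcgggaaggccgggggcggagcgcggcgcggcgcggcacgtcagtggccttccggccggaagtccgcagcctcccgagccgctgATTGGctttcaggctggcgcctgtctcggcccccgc
RRM2, chr2:10122589-10122738, plus strand: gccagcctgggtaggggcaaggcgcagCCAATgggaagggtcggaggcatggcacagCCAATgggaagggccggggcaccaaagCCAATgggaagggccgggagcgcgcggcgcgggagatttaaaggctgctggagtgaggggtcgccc
MCM10, chr10:13161408-13161557, plus strand: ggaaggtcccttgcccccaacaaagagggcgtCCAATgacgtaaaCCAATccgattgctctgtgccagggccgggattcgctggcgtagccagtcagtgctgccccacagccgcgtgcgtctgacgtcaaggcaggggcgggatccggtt
MCM7, chr7:100101398-100101597, minus strand: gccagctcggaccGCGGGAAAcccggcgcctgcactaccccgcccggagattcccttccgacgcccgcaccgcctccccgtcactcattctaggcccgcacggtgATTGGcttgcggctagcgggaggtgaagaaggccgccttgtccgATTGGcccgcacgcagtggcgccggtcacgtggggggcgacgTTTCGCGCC
MCM6, chr2:135876484-135876603, minus strand: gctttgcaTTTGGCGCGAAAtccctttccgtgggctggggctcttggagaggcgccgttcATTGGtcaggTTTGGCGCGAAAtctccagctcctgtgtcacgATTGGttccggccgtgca
E2F1, chr20:33686386-33686535, minus strand: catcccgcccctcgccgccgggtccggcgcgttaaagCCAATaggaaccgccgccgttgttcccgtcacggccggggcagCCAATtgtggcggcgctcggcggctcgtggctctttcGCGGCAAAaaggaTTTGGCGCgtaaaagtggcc

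Promoters of 300 bases, 250 before and 50 after the start, were found for 37 of the 44 members. The E2F letters stood in 18 of the 37 (48.6%), against 3.31% of all 35116 promoters of that length and 6.05% of the 4281 promoters of genes averaging at least 4 log2 CPM. CCAAT stood in 20 of the 37 (54.1%), against 34.6% of all promoters and 38.3% of those of genes averaging at least 4 log2 CPM. In the 3 other gene lists read below, CCAAT stood in 56.8% (other S-phase genes), 29.2% (G1 brakes and other E2F and RB family) and 75% (G2/M genes) of the promoters found. The E2F letters stood in 27, 16.7 and 7.14% of these. In MCM6 the E2F letters of both strands overlap in pairs, giving 4 matches at 2 places. MCM7 and E2F1 held 2 E2F matches each and POLA1 held 1. The last capital of the MCM7 bases printed above is part of a CCAAT that runs past the printed end. RRM2 and MCM10 held no E2F letters in this window and 3 and 2 CCAAT matches. Such matches describe the letters of the window and are not evidence that a factor binds there.

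All 44 members passed the filter on low counts that left 19772 genes for testing, and 31 of them averaged at least 4 log2 CPM. Library totals ran from 18597262 to 28662389 counts, and a detection floor of 3 counts was 0.105 to 0.161 CPM, or counts scaled to library size, a floor that takes in counting error alone. Of the targeted genes, VRTN and SEPHS1 each stood at 14.9% of their control mean in their own knockdown. DSCC1 had 0.601, 0.938 and 0.879 CPM in DSCC1 siRNA cells, against 3.3 to 5.16 CPM in controls, on 13 to 24 counts per library in DSCC1 siRNA cells and 70 to 129 in controls. That is 20.5% of controls, but the log2 fold change of -2.27 ± 0.71 (SE) was not called (edgeR's quasi-likelihood test, adjusted p = 0.486). DSCC1 also lay below all controls in SEPHS1 siRNA cells (0.245, 1.79 and 3.27 CPM) and VRTN siRNA cells (2.73, 1.88 and 2.88 CPM). In SALL4 siRNA cells it had 1.43, 1.63 and 4.64 CPM. SALL4 had 193, 213 and 235 CPM in SALL4 siRNA cells, against 243 to 303 CPM in controls. That is 77.9% of controls, a log2 fold change of -0.36 ± 0.11 (SE) that missed the threshold (edgeR's quasi-likelihood test, adjusted p = 0.0562). SEPHS1 was also low in SALL4 siRNA cells, at 174, 197 and 249 CPM, against 381 to 440 CPM in controls. Of 10 embryonic stem cell markers, 9 had at least 10 CPM in every library, while ZFP42, the gene of the REX1 reporter, was listed at 0 in all of them.

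The 3 SALL4 siRNA libraries did not behave alike over these genes. The median member stood 0.38 and 0.27 log2 units below the control mean in replicates 1 and 2, and 0.08 above it in replicate 3. In replicate 1, 28 of the 44 members lay below all 4 controls, in replicate 2 it was 26, and in replicate 3 it was 6. These are 63.6, 59.1 and 13.6% of the members, beside 31.8, 31.6 and 30.9% of all 5526 genes averaging at least 4 log2 CPM. Over all such genes the share above the controls was 33.7, 30.2 and 27.4%, and the median absolute log2 deviation from the control mean was 0.26, 0.22 and 0.20, both lowest in replicate 3. The split of the libraries was wider over the members than over these genes in the share below the controls. SALL4 and SEPHS1 transcripts were also highest in replicate 3 among the SALL4 siRNA libraries, as the values above show. Other values described below were furthest from controls in replicate 3. CDKN1C had 13.6 CPM there and 11.5 and 9.73 CPM in replicates 1 and 2, against 1.42 to 3.3 CPM in controls. Fibroblast and mesenchyme markers summed to 800 CPM there and to 1710 and 1500 CPM in replicates 1 and 2, against 1830 to 2070 CPM in controls. Over the same genes, replicate 3 of SALL4 siRNA and replicate 3 of VRTN siRNA deviated from their group means together (r = 0.36). The parts of knockdown depth and of replicate number in the split were not tested. The counts of called members and their medians are therefore given with and without replicate 3. Replicate 3 was singled out on these same members' values, so the counts without it are description only.

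**Figure D1:**
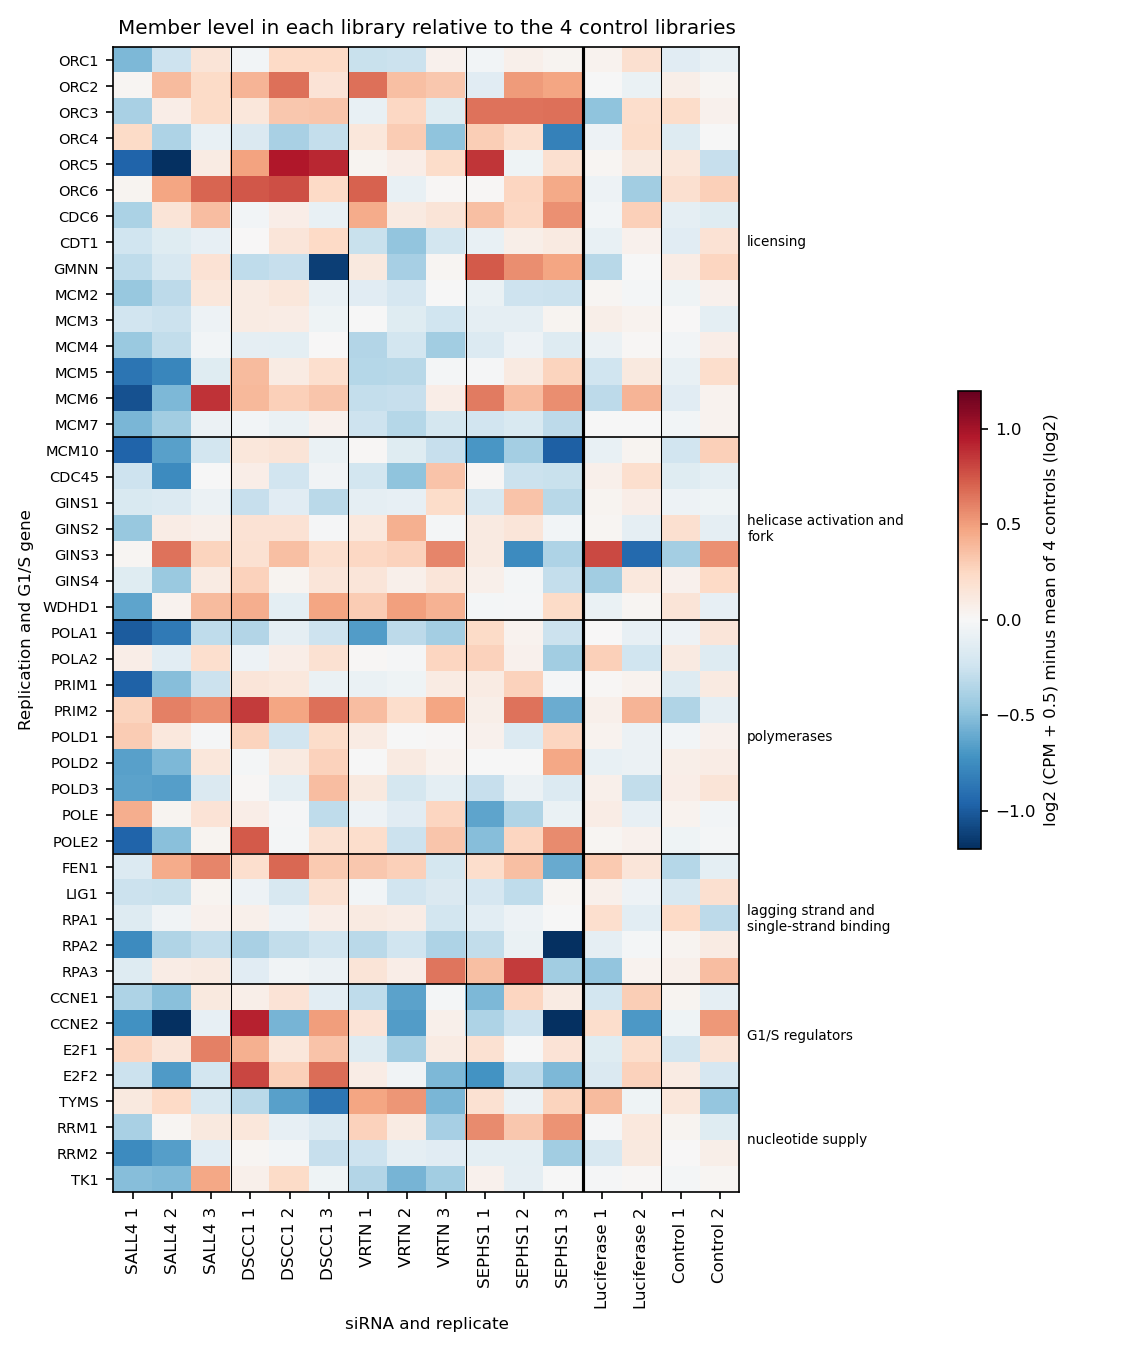
Level of each of the 44 members (rows, grouped by role) in each of the 16 libraries (columns) as log2 (CPM + 0.5) minus the mean of the 4 controls. Blue is lower and red is higher, and the colours saturate at 1.2 log2 units. SALL4 replicates 1 and 2 are mostly blue, while SALL4 replicate 3 and the DSCC1 libraries, with medians of 0.08 to 0.12 log2 units, are mixed.

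Against the controls, SALL4 siRNA cells had 3 members lower and 0 higher: POLA1, MCM5 and RRM2. A call here is a Benjamini-Hochberg adjusted p under 0.05 over all tested genes. Of all 19772 genes, 1.13% were called lower and 1.85% higher, and of genes averaging at least 4 log2 CPM 3.13% were called lower. The members' share called lower, 3 of 44, was above both, but the list was not tested. The median log2 fold change of the members was -0.15, beside 0.02 over all tested genes. It was -0.26 without SALL4 replicate 3, -0.10 without replicate 1 and -0.11 without replicate 2. Of the 44 fold changes 32 were negative and 11 positive, and at an unadjusted p under 0.05 there were 10 lower and 1 higher, beside 5.8% of all genes lower, 12.4% lower among genes averaging at least 4 log2 CPM, and 13.1% of all genes in either direction. In bulk RNA, fewer cells in S phase and less of these RNAs per cell cannot be told apart.

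Among the licensing genes, MCM5 fell. MCM5 is a subunit of the helicase ring and sits at the gate through which the ring opens onto DNA. It had 127, 136 and 211 CPM in SALL4 siRNA cells, against 198 and 253 CPM with Luciferase siRNA and 220 and 271 CPM with Control siRNA. Replicates 1 and 2 lay below all controls and replicate 3 lay within their range. The log2 fold change was -0.57 ± 0.14 (SE; edgeR, adjusted p = 0.0166). MCM7, another ring subunit, had 148, 162 and 207 CPM, against 216, 216, 212 and 224 CPM in controls. All 3 MCM7 values were below all 4 controls, but the change of -0.33 ± 0.11 was not called (adjusted p = 0.11). The other ring subunits MCM2, MCM3 and MCM4 had log2 fold changes of -0.19, -0.18 and -0.25, and none was called. MCM4 had 166, 184 and 221 CPM, against 216 to 240 CPM in controls, so replicate 3 again lay within the control range.

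MCM6 showed the widest split of the ring subunits and was singled out after its values were seen. It had 13.3, 19.1 and 51.6 CPM in SALL4 siRNA cells, against 22.4 to 37.2 CPM in controls, below all controls in replicates 1 and 2 and above all of them in replicate 3. Of the loading factors, CDC6 (0.08) and CDT1 (-0.17) were not called, nor was GMNN (-0.11), which had 9.12, 9.88 and 12.9 CPM, against 8.92 to 13.7 CPM in controls. ORC5 was the lowest ORC subunit, with 2.07, 1.55 and 4.86 CPM, against 4.58, 4.92, 4.98 and 3.61 CPM in controls. Its change of -0.68 ± 0.40 was not called (edgeR, adjusted p = 0.496; -1.30 without replicate 3, also not called), and it rested on 41 to 114 counts per SALL4 siRNA library.

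Among helicase activation genes, MCM10, which binds the activated helicase and polymerase alpha, had 20.7, 25.7 and 34.9 CPM in SALL4 siRNA cells, against 38.2, 41.5, 34.7 and 49.6 CPM in controls. Replicate 3 lay just above the lowest control, and the change of -0.60 ± 0.18 missed the threshold (edgeR, adjusted p = 0.0635). The 4 GINS genes, whose products join CDC45 and the MCM ring as the active helicase, had log2 fold changes between -0.17 and 0.19, and CDC45 had -0.33. None of these was called.

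POLA1, the catalytic subunit of polymerase alpha, had the largest fall among the called members. It had 21.9, 24.3 and 35.8 CPM in SALL4 siRNA cells, against 44.5, 41.3, 42.5 and 49.1 CPM in controls. All 3 values lay below all 4 controls, with a log2 fold change of -0.70 ± 0.17 (SE; edgeR, adjusted p = 0.0159). The primase catalytic subunit PRIM1 also lay below all controls, at 9.66, 13.5 and 16.2 CPM against 17.4 to 21 CPM in controls, without a call (-0.57 ± 0.20, adjusted p = 0.147). Its partner PRIM2 had 4.66, 6.02 and 5.79 CPM, against 2.85 to 5.2 CPM in controls (0.53 ± 0.38, not called), and POLA2, the other accessory subunit of polymerase alpha, had a log2 fold change of 0.04. The subunits of the enzyme thus gave unequal values. Of polymerase delta, POLD2 and POLD3 had log2 fold changes of -0.31 and -0.49, POLD1 had 0.15, and for polymerase epsilon POLE had 0.22 and POLE2 had -0.44, with 0 calls.

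RRM2, the regulated small subunit of ribonucleotide reductase, which makes deoxynucleotides, had 87.3, 93.4 and 135 CPM in SALL4 siRNA cells, against 129, 160, 148 and 155 CPM in controls. Replicates 1 and 2 lay far below all controls and replicate 3 lay inside their range. The log2 fold change was -0.49 ± 0.13 (SE; edgeR, adjusted p = 0.0377). RRM1, the large subunit, had a log2 fold change of -0.07, and TYMS, thymidylate synthase, had 0.05. The salvage kinase TK1, singled out after its values were seen, had 49.9, 49.4 and 98.8 CPM, against 70.1 to 72.4 CPM in controls, so its 3 libraries lay on both sides of a narrow control range. E2F1 had 50.3, 46.4 and 64.1 CPM, against 38, 48.7, 35.9 and 47 CPM in controls (0.34 ± 0.16, adjusted p = 0.337). E2F1 was thus not called and its sign was opposite to that of most members.

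**Figure D2:**
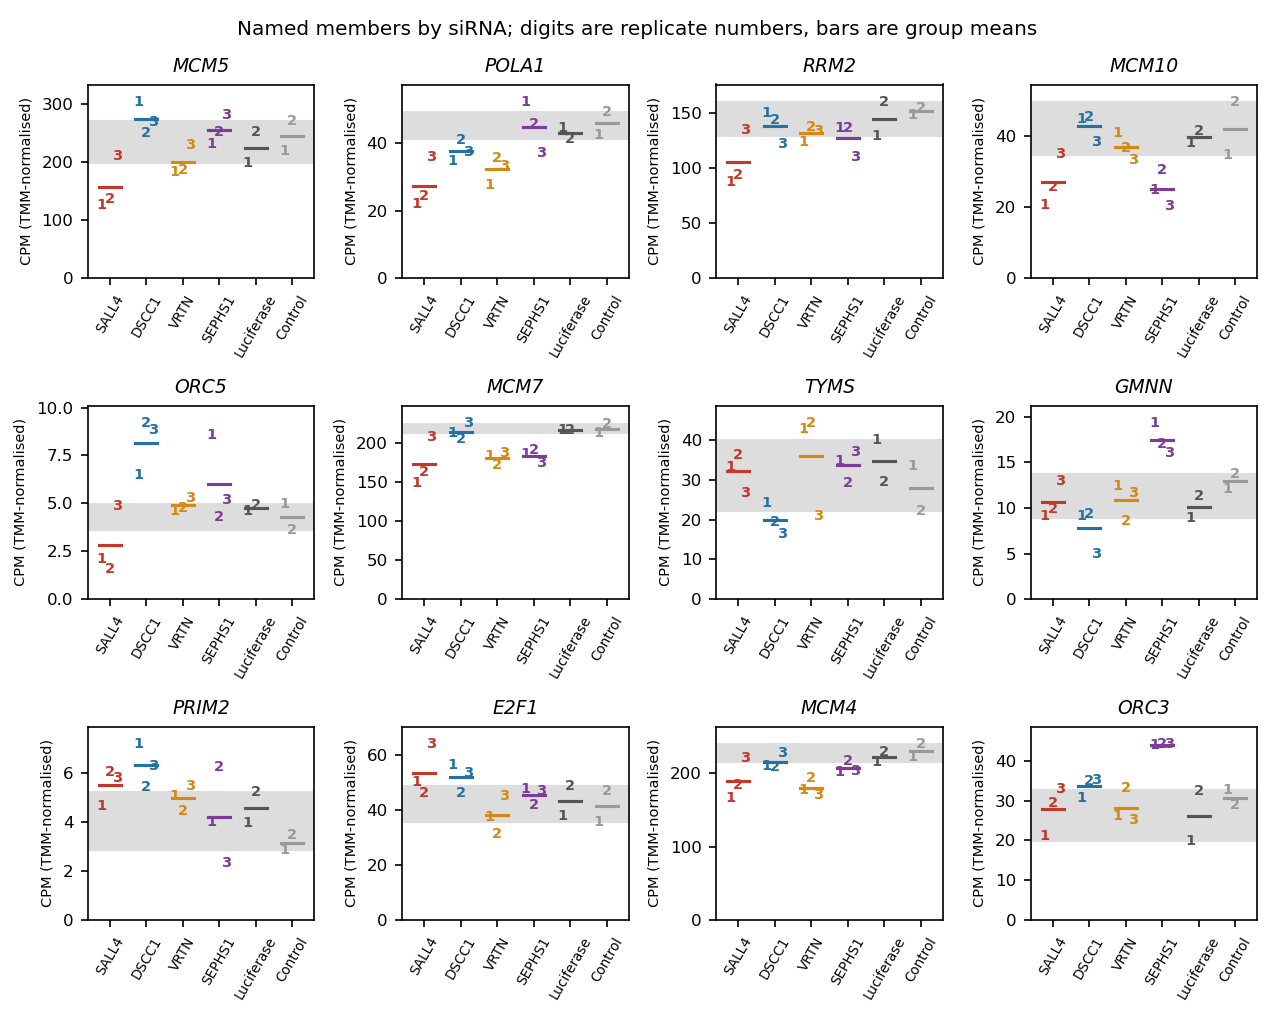
TMM-normalised CPM of 12 members in each library, by siRNA group. Digits are replicate numbers, bars are group means and the grey band is the range of the 4 controls. In SALL4 siRNA cells POLA1 lies below the band in all 3 replicates, whereas MCM5 and RRM2 lie below it in replicates 1 and 2 and within it in replicate 3.

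Taking all 3 SALL4 siRNA libraries, 6 members lay below all 4 controls (MCM7, GINS1, POLA1, PRIM1, RPA2 and E2F2) and 0 lay above, beside 6.83% of all genes below and 6.82% above. Of genes averaging at least 4 log2 CPM, 11.2% lay below. Without replicate 3, 9 members were called lower and 0 higher, beside 1.72% of 19618 genes called lower and 2.99% higher. These were MCM5 (log2 fold change -0.83), MCM6 (-0.80), MCM7 (-0.47), MCM10 (-0.81), POLA1 (-0.93), PRIM1 (-0.74), POLD2 (-0.59), RRM2 (-0.70) and TK1 (-0.51). Replicate 3 was chosen as the library in which the members were least low, so these 9 calls are description only. Over all genes the shares called were also larger without it, beside 1.13% lower and 1.85% higher with it. The part of this choice in the added calls was not tested. For the fit without replicate 3 the share among genes averaging at least 4 log2 CPM was not taken. Without replicate 1, or without replicate 2, 0 members were called. The 3 calls were also lost against Luciferase siRNA alone, against replicate 1 of both controls alone, and in a fit of only the groups compared. The RRM2 call was lost as well against Control siRNA alone and without Luciferase replicate 2 or Control replicate 2.

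Beside the members, 3 lists of cell cycle genes were read in the same fit. Of 45 other S-phase genes tested, 2 were called lower in SALL4 siRNA cells and 0 higher, with a median log2 fold change of -0.20. CDCA7, a MYC- and E2F-responsive chromatin gene, had 9.8, 14.4 and 25.4 CPM, against 26.5, 40.9, 37 and 35.5 CPM in controls (-1.08 ± 0.23, edgeR adjusted p = 0.00474). UNG, which removes uracil from DNA, had 28.6, 36.4 and 48 CPM, against 47.1 to 72 CPM in controls (-0.65 ± 0.17, edgeR adjusted p = 0.0222). In both genes replicate 3 was the highest of the SALL4 siRNA libraries, and without it the log2 fold changes were -1.52 for CDCA7 and -0.85 for UNG. Both calls ended when replicate 1 or replicate 2 was left out and in a fit of only the groups compared. The UNG call also ended without Luciferase replicate 2 or Control replicate 2, against Control siRNA alone and against replicate 1 of the controls alone. PCNA, the sliding clamp, had 46.7, 45.8 and 62.8 CPM, against 47.9 to 55.4 CPM in controls (log2 fold change 0.04), and was not called.

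Of 29 tested genes of G1 brakes and other E2F and RB family members, 2 were called higher in SALL4 siRNA cells and 0 lower. CDKN1A, the p21 inhibitor of cyclin-dependent kinases, had 192, 178 and 31.7 CPM, against 72.4, 39.8, 57.2 and 28.9 CPM in controls. Replicates 1 and 2 lay above all controls, while replicate 3 lay within their range. The log2 fold change was 1.45 ± 0.31 (edgeR, adjusted p = 0.00515) and 1.93 without replicate 3. The call ended when replicate 1 or replicate 2 was left out, with DESeq2 (adjusted p = 0.0627), with only the groups compared and against Luciferase siRNA alone. CDKN1C, the related p57 inhibitor, had 11.5, 9.73 and 13.6 CPM, against 1.42 to 3.3 CPM in controls, above all controls in every replicate (2.20 ± 0.40, adjusted p = 0.000906; 0.0621 against Control siRNA alone). CDKN1A thus split the libraries as the members did, and CDKN1C did not. The part of either gene in the members' levels was not tested. Of 35 G2/M genes, 1 was called, CDC25B, a phosphatase that activates mitotic cyclin-dependent kinase. It had 127, 111 and 58.7 CPM, against 53.5 to 78.5 CPM in controls (0.62 ± 0.17, adjusted p = 0.0429), with replicate 3 again inside the control range, and a log2 fold change of 0.90 without replicate 3. The call was lost in 3 of the 7 fits that left out 1 library, with the stricter filter, with only the groups compared, and against either control siRNA or replicate 1 of the controls alone.

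Summed levels of cell type markers in SALL4 siRNA cells lay outside the control range for 4 of the 5 lists, which were not tested. The summed level of 10 stem cell markers was 3730 to 3910 CPM, against 4620 to 5350 CPM in controls. That sum was mostly PODXL, LIN28A and DNMT3B. The median log2 fold change of the 9 tested stem cell markers was -0.12, with 2 called lower and 0 higher. The summed level of 10 fibroblast and mesenchyme markers was 1710, 1500 and 800 CPM in replicates 1, 2 and 3, against 1830 to 2070 CPM in controls. That list was mostly COL1A1, with DCN, LUM and TWIST1 under 1 CPM in every library, and the median log2 fold change of its 8 tested genes had the other sign, at 1.39. The 8 neuroectoderm markers summed to 84.3 to 95 CPM, against 126 to 138 CPM in controls. That sum was mostly NES, at 73.7 to 140 CPM over all libraries, while OTX1, the next, reached 7.01 CPM, and the median log2 fold change of the 6 tested genes was 2.53. Both positive medians take in genes near 0, such as PAX6, ZIC1 and SIX3, which reached at most 1.36, 1.53 and 1.9 CPM. In the fibroblast and the neuroectoderm list alike, 1 gene was called lower and 0 higher. The 8 primitive streak and endoderm markers summed to 15.1 to 17.5 CPM, against 9.35 to 14.4 CPM in controls. The 8 trophectoderm and amnion markers summed to 1.21 to 4.25 CPM, against 3.76 to 5.62 CPM in controls, and these ranges overlap. The part of these values in the members' levels was not tested.

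In DSCC1 siRNA cells 0 of the 44 members were called against the controls, beside 0.0455% of all genes, which were 9 genes, all higher. The median log2 fold change of the members was 0.08, beside 0.00 over all tested genes, with 15 negative and 29 positive values. At an unadjusted p under 0.05 there were 3 members, 2 lower and 1 higher, beside 5.84% of all genes in either direction. DESeq2 and limma-voom also called 0 members. All 3 libraries lay close together, with member medians 0.09, 0.08 and 0.12 log2 units above the control mean.

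TYMS, which makes thymidylate, had the smallest p in DSCC1 siRNA cells. It had 24.3, 19.3 and 16.5 CPM, against 40, 29.5, 33.6 and 22.1 CPM in controls. The highest DSCC1 value lay above the lowest control, and the change of -0.64 ± 0.22 was not called (edgeR, adjusted p = 0.595). TYMS shares 39.1% of its exon bases with ENOSF1 on the opposite strand, and the strand setting of the counting is not given in the sources used here. GMNN had 9.11, 9.31 and 4.91 CPM, against 8.92 to 13.7 CPM in controls (-0.56 ± 0.26, adjusted p = 0.843), with 1 library below all controls.

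ORC5 had 6.47, 9.19 and 8.84 CPM in DSCC1 siRNA cells, against 3.61 to 4.98 CPM in controls, above all of them in each library (0.85 ± 0.39, edgeR adjusted p = 0.843). PRIM2 was likewise above all controls, with 7.17, 5.44 and 6.29 CPM against 2.85 to 5.2 CPM (0.73 ± 0.38, not called). E2F1 had 56.6, 46.3 and 53.6 CPM, against 35.9 to 48.7 CPM in controls (0.30 ± 0.16, not called), and replicate 2 lay within the control range. ORC5 and PRIM2 are low genes, and their large SE come from the fit of all 16 libraries, not from the scatter of these libraries alone. Counting non-overlap alone, 4 members lay below all controls in all 3 libraries (ORC4, GINS1, POLA1 and RPA2) and 4 above (ORC2, ORC5, PRIM2 and E2F2), beside 4.49% of all genes below and 4.61% above. Of genes averaging at least 4 log2 CPM, 5.43% lay below and 9.16% above.

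The 3 members called lower in SALL4 siRNA cells, and MCM10, were not called after DSCC1 siRNA. MCM5 had 304, 250 and 269 CPM in DSCC1 siRNA cells, with a log2 fold change against controls whose 95% interval ran from -0.06 to 0.51. POLA1 had 34.6, 41 and 37.2 CPM, all below the controls, with an interval from -0.58 to 0.11. RRM2 had 150, 144 and 122 CPM and an interval from -0.37 to 0.18. MCM10 had 44.8, 45.4 and 38.4 CPM and an interval from -0.30 to 0.42. None of these 4 intervals excluded 0. Of the other S-phase genes, the G1 brakes with other E2F and RB family genes and the G2/M genes, 0 were called in DSCC1 siRNA cells, and CDKN1A had 23.4, 27.7 and 35.6 CPM. The first of these lists holds DSCC1 itself, which stood at 20.5% of controls without a call, so 0 calls do not show absence of change in low genes.

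**Figure D3:**
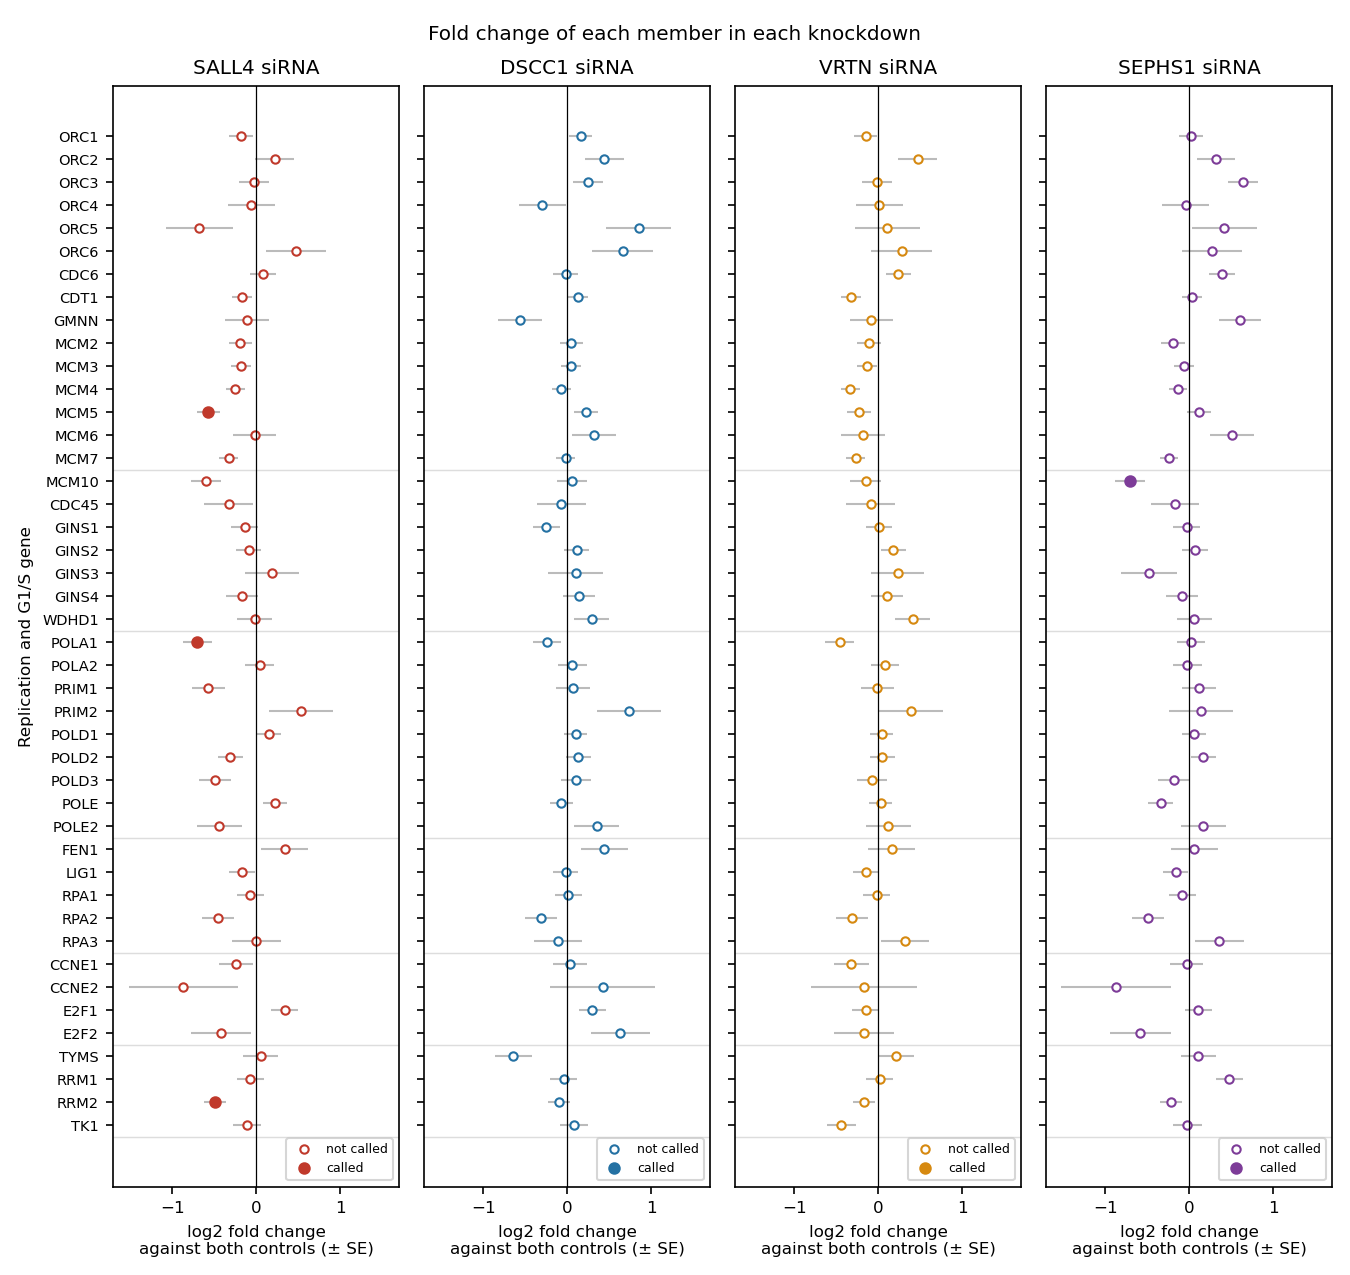
Log2 fold change (x axis, with SE bars) of each of the 44 members (rows, in the order of their roles) in each knockdown against both control siRNAs. Filled points were called at an adjusted p under 0.05: POLA1, MCM5 and RRM2 with SALL4 siRNA and MCM10 with SEPHS1 siRNA, with 0 calls for DSCC1 and VRTN siRNA.

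In VRTN siRNA cells 0 members were called, beside 1.13% of all genes in either direction, and at an unadjusted p under 0.05 there were 5 lower and 1 higher, beside 9.4% of all genes in either direction and 5.13% lower. Of genes averaging at least 4 log2 CPM, 10.6% were lower at that p. DESeq2 and limma-voom each called 1 member, MCM4. The median log2 fold change was -0.01, beside 0.02 over all tested genes. MCM4 had 178, 194 and 170 CPM, against 216, 229, 222 and 240 CPM in controls, below all of them in every library (-0.33 ± 0.11, edgeR adjusted p = 0.18). POLA1 was also below all controls, with 27.7, 35.6 and 33.3 CPM against 41.3 to 49.1 CPM (-0.46 ± 0.17, adjusted p = 0.278). In all, 6 members lay below all controls (CDT1, MCM4, MCM7, POLA1, RPA2 and TK1) and 2 above (ORC2 and WDHD1), beside 6.68% of all genes below and 5.27% above. Of genes averaging at least 4 log2 CPM, 12.1% lay below and 8.16% above. Of the other lists, cyclin D1 (CCND1), which drives RB phosphorylation in G1, was called lower, at 74.1, 72.7 and 40.7 CPM against 111 to 126 CPM in controls (-0.94 ± 0.16, adjusted p = 0.00124). PTTG1, the securin of mitosis, was called higher, at 90.7, 90.4 and 81 CPM against 40.9 to 62.6 CPM in controls (0.78 ± 0.14, adjusted p = 0.00168). The remaining tested members of the 3 lists were not called.

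SEPHS1 siRNA cells had 1 member called lower, MCM10, and 0 higher, beside 0.931% of all genes called lower and 0.602% higher. Of genes averaging at least 4 log2 CPM, 2.03% were called lower. MCM10 had 24.8, 30.5 and 20.4 CPM, against 38.2, 41.5, 34.7 and 49.6 CPM in controls, below all controls in every library (-0.70 ± 0.18, edgeR adjusted p = 0.0402). ORC3, a core ORC subunit, had 43.9, 44.1 and 44.2 CPM, against 19.8, 32.3, 32.6 and 28.8 CPM in controls. These 3 values lay close together and above all controls, but the change of 0.64 ± 0.18 missed the threshold (adjusted p = 0.06). GMNN had 19.3, 17 and 16 CPM, against 8.92 to 13.7 CPM in controls, above all of them (0.61 ± 0.25, adjusted p = 0.299). Altogether 4 members lay below all controls (MCM2, MCM7, MCM10 and E2F2) and 3 above (ORC3, GMNN and RRM1), beside 7.76% and 5.25% of all genes. Of genes averaging at least 4 log2 CPM, 13.3% lay below and 9.83% above. The median log2 fold change of the members was 0.02, beside -0.02 over all tested genes. The MCM10 call was lost with limma-voom, with a stricter count filter, with upper quartile scaling and with only the groups compared. It was also lost against either control siRNA alone and against replicate 1 of the controls alone. Leaving out SEPHS1 replicate 1 or 3 or Control replicate 2 ended it as well. Of the other lists, PTTG1 was called higher, at 78.8, 81.9 and 80.6 CPM against 40.9 to 62.6 CPM in controls (0.66 ± 0.14, adjusted p = 0.00989), and 0 others were called. Against Control siRNA alone, and against replicate 1 of the controls alone, PTTG1 was not called in SEPHS1 or VRTN siRNA cells.

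**Figure D4:**
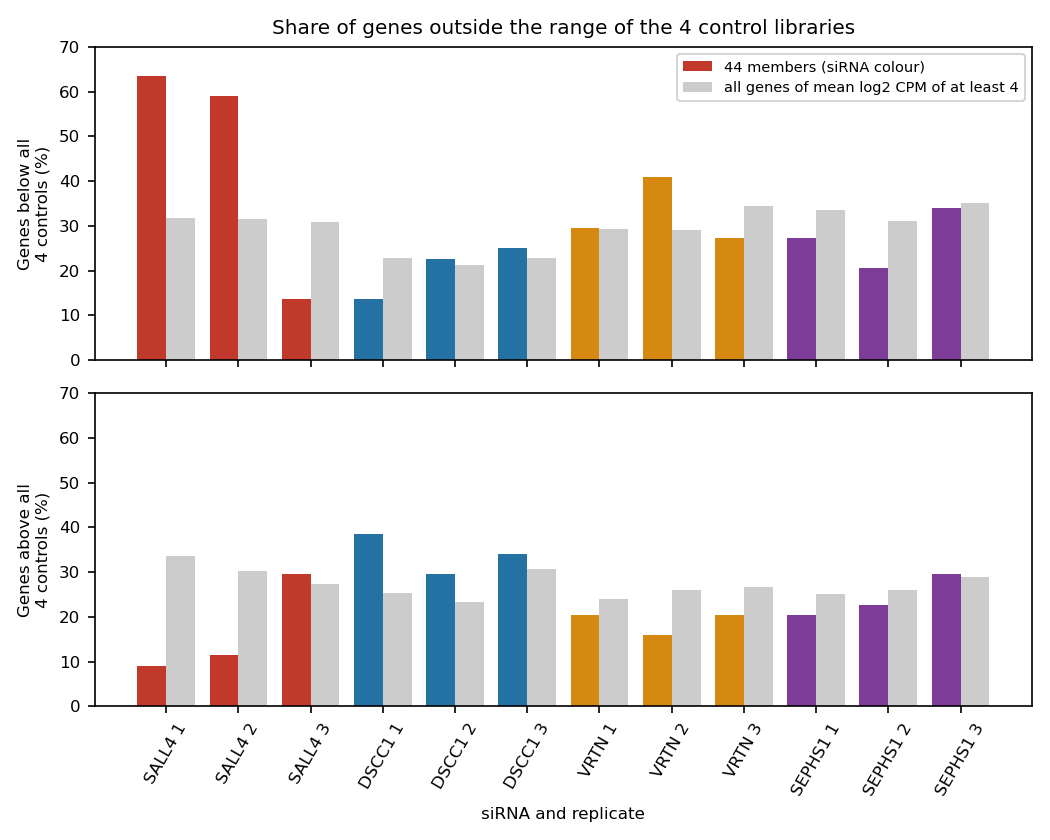
Share of the 44 members (coloured bars) and of all 5526 genes averaging at least 4 log2 CPM (grey bars) that lay below (upper panel) or above (lower panel) all 4 control libraries, in % for each knockdown library. In SALL4 replicates 1 and 2, 63.6 and 59.1% of the members lay below the controls, against 13.6% in replicate 3, while the grey bars are near 31% in all 3.

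The knockdowns were also set against each other, since each comparison above shares the same 4 control libraries. SALL4 siRNA against DSCC1 siRNA differs in harvest time, 48 h against 72 h, which cannot be told apart from the target. In that comparison 3 members were lower in SALL4 siRNA cells and 0 higher, beside 1.36% of all genes lower and 1.76% higher. Of genes averaging at least 4 log2 CPM, 3.71% were called lower. MCM5 differed by -0.80 ± 0.15 log2 units (edgeR, adjusted p = 0.00147), with 127, 136 and 211 CPM in SALL4 siRNA cells and 304, 250 and 269 CPM in DSCC1 siRNA cells. ORC5 differed by -1.53 ± 0.43 (adjusted p = 0.0431) and MCM10 by -0.66 ± 0.19 (adjusted p = 0.0491). In all 3 genes every SALL4 library lay below every DSCC1 library. POLA1 (-0.46, adjusted p = 0.191) and RRM2 (-0.39, adjusted p = 0.147) were not called between these knockdowns with all libraries. Both were called without SALL4 replicate 3 (POLA1 -0.69, adjusted p = 0.0165; RRM2 -0.60, adjusted p = 0.00453) and by limma-voom. The median difference of the members was -0.22, beside 0.01 over all tested genes, and it was -0.33 without SALL4 replicate 3 and -0.09 without replicate 1. Without SALL4 replicate 3, 13 members were lower and 1 higher, TYMS at 0.81, beside 2.37% of all genes lower and 3.26% higher. As above, that library was singled out on the members' own values. The ORC5 and MCM10 calls were each lost in 5 of the 6 fits that left out 1 library of either group, and the MCM5 call in 0 of them.

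SALL4 against VRTN siRNA, both at 48 h, differs in siRNA type, an enzymatically made pool against a synthetic siRNA. The siRNA type cannot be told apart from the target. In this comparison 0 members were called, beside 2.44% of all genes in either direction. At an unadjusted p under 0.05 there were 6 lower and 1 higher, where 12.3% of all genes stood and 5.26% were lower. Of genes averaging at least 4 log2 CPM, 9.84% were lower at that p. The members' median was -0.08, and -0.22 without SALL4 replicate 3 and -0.02 without replicate 1. Limma-voom called 1 and DESeq2 0. The smallest adjusted p among members was that of E2F1 (0.49 ± 0.17, edgeR adjusted p = 0.142), with 50.3, 46.4 and 64.1 CPM in SALL4 siRNA cells and 37.7, 31.5 and 45.1 CPM in VRTN siRNA cells. Every SALL4 value of E2F1 lay above every VRTN value. Without SALL4 replicate 3, singled out on the members' own values, 4 members were called lower: MCM5, MCM10, POLD2 and RRM2, beside 1.47% of all genes lower. The other lists gave calls here with all libraries. CDKN1A (2.26), CCND1 (1.30) and CCND2 (1.12), the last a second D-type cyclin, were higher in SALL4 siRNA cells, 3 of 29. Of the 45 other S-phase genes, DUT, which clears dUTP, was higher (1.07) and CDCA7 was lower (-0.96). Of the 35 G2/M genes, cyclin B2 (CCNB2, -0.82), the spindle checkpoint kinase BUB1 (-0.62) and the ubiquitin-conjugating enzyme UBE2C (-0.38) were lower and CDC25B (0.75) higher. Against DSCC1 siRNA, the same lists gave CDKN1A (2.21), CDKN1C (1.51) and CDC25B (0.69) higher and the chromatin assembly subunit CHAF1B (-0.89) and the repressive factor E2F4 (-0.50) lower in SALL4 siRNA cells. Of these values between knockdowns, CDKN1A in both comparisons and CCND1 were called in every fit that left out 1 library, and the others were lost in 1 or more. Against DSCC1 siRNA, CDKN1C was lost in 6 of 6 such fits, CHAF1B and CDC25B in 5 and E2F4 in 4. Against VRTN siRNA, CDCA7, DUT, UBE2C and CDC25B were lost in 4 of 6, BUB1 and CCNB2 in 2 and CCND2 in 1.

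DSCC1 against SEPHS1 siRNA, both at 72 h, gave 0 called members, beside 0.268% of all genes in either direction, with 2 calls by DESeq2. At an unadjusted p under 0.05 there were 5 lower and 2 higher, beside 9.58% of all genes in either direction and 3.71% lower. Of genes averaging at least 4 log2 CPM, 4.99% were lower at that p. GMNN came nearest, with 9.11, 9.31 and 4.91 CPM in DSCC1 siRNA cells and 19.3, 17 and 16 CPM in SEPHS1 siRNA cells (-1.16 ± 0.28, edgeR adjusted p = 0.0589). MCM10 had 44.8, 45.4 and 38.4 CPM in DSCC1 siRNA cells and 24.8, 30.5 and 20.4 CPM in SEPHS1 siRNA cells (0.76 ± 0.19, adjusted p = 0.0827). The libraries of the pair did not overlap in either gene. The median difference was 0.11, beside 0.01 over all tested genes, and 0 genes of the 3 other lists were called. Control siRNA against Luciferase siRNA gave 0 calls over all genes, with 1.07% of genes and 0 members at an unadjusted p under 0.05 (n = 2 each).

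Levels were compared between genes as RPKM, which is CPM divided by the merged exon length in kilobases. In the 4 control libraries the members ran from 49.5 ± 1.17 RPKM for MCM7 (SD, n = 4) to 0.675 RPKM for CCNE2, cyclin E2. MCM7 was followed by TK1 at 38.3 ± 0.595, MCM4 at 32.5, MCM5 at 32.1, POLD2 at 28.1 and RRM2 at 27.8 RPKM. Near the foot stood ORC2 at 1.90, ORC4 at 1.27, ORC5 at 1.21, ORC6 at 1.03 and E2F2 at 1.01 RPKM. Of the 43 neighbouring pairs in this order, 39 had overlapping control ranges, and the breaks came after MCM7, TK1, GINS1 and ORC2. MCM5 and RRM2, both called in SALL4 siRNA cells, stood among the 6 highest.

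The members did not all follow each other. Over the 16 libraries, which share 6 groups and the scaling, the Pearson r of log2 CPM of a member with the mean of the other members ran from -0.49 for TYMS to 0.83 for MCM7, with a median of 0.45. It was above 0.5 for 20 of the 44 and also high for RRM2 (0.81), MCM5 (0.81), MCM2 (0.81) and PRIM1 (0.80), and it was negative for POLD1 (-0.44) and POLE (-0.43). Among 5491 other genes averaging at least 4 log2 CPM, those most like the members' mean over the same 16 libraries were the chaperone HSP90AA1 (0.92), the RNA polymerase II subunit POLR2C (0.90), the ribosome assembly factor TSR1 (0.88) and the translation initiation genes EIF3CL (0.88) and EIF3C (0.87). EIF3C and EIF3CL are near-identical copies whose reads cannot be separated with certainty. By annotation, 19 of the 44 members share exon bases with another gene, among them RRM2 (20.2% with a gene on the same strand) and MCM7 (8.94% with AP4M1 on the other strand), and 5 have pseudogenes named after them (POLD2, FEN1, RPA2, TYMS and RRM2). Their counts are uncertain to that extent.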

How the data were processed

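The authors deposited 1 table of raw counts per gene, made from 80 bp single-end reads aligned to GRCh38; STAR 2.4.0.1 and HTSeq 0.9.1 are named in the submitters' processing notes. Libraries were poly(A)-selected with a Lexogen SENSE kit after transfection of 30 to 50 nM siRNA, per the labels' protocols. The annotation release and the strand setting are not given in the sources used here. Of 60675 identifiers, 56558 took a symbol from the name table supplied and 497 from GENCODE 29, the source also of positions (GRCh38), exon lengths and overlaps, and 3620 stayed unnamed. All 44 members matched.

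All 16 libraries entered 1 fit with 6 groups in edgeR 4.0.16 (R 4.3.3). Genes were filtered with filterByExpr (19772 kept), scaled by TMM and tested by the quasi-likelihood test. P-values were adjusted by Benjamini-Hochberg over all tested genes, with a call at an adjusted p under 0.05. Both control groups had equal weight in the contrast with a knockdown. The SE was taken from the fold change and its F statistic. CPM values are TMM-normalised, and the RPKM values divide them by merged exon length in kilobases. The common dispersion was 0.347. The steps were tested on simulated data.

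Values in every library are given for members called in any comparison, for the 5 members with the smallest p in SALL4 and in DSCC1 siRNA cells and the 2 with the smallest in VRTN and in SEPHS1 siRNA cells. MCM6, TK1 and PRIM1 were added after their values were seen. Called genes of the 3 other lists are named, at most 4 per list and comparison. Of them, 1 called gene of these lists is not reported here. The members and lists were chosen with earlier results of these data known. P-values measure the spread between these libraries. The alternatives were 2 other scalings, no filter or 50 counts in 3 libraries, DESeq2 1.42.0, limma-voom with sample quality weights, which can down-weight whole libraries (limma 3.58.1), a replicate block, fewer groups or controls, and leaving out each library.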

Additional observations from a re-analysis of the deposited data

Results flagged for a closer look

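Between SALL4 siRNA and DSCC1 siRNA, 3 members differed when the difference itself was tested (edgeR, n = 3 each). ORC5, a subunit of the origin recognition complex, differed by -1.53 log2 units (adjusted p = 0.0431). It had 2.07, 1.55 and 4.86 CPM in SALL4 siRNA cells and 6.47, 9.19 and 8.84 CPM in DSCC1 siRNA cells, and neither knockdown was called against the controls. MCM5 differed by -0.80 log2 units (adjusted p = 0.00147) and MCM10 by -0.66 (adjusted p = 0.0491). Harvest time differed between these groups and cannot be told apart from the target. Among the 4 controls no named member had a library set apart by Dixon's criterion.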

How the results depend on the processing

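No result changed direction while called. For SALL4 siRNA against controls, the count of called members was 3, and it was 5 with a replicate block, 5 with DESeq2, 9 with limma-voom and 0 with only the groups compared, with Luciferase alone or with replicate 1 of the controls alone; leaving out each library in turn gave 0 to 9. For SALL4 against DSCC1 siRNA (3 called) it was 5 with a replicate block, 5 with DESeq2, 11 with limma-voom, 1 with only the groups compared, and 1 to 14 leaving out each library. For SEPHS1 siRNA (1 called) it was 2 with DESeq2 size factors, 2 with no filter, 2 with DESeq2, and 0 with the stricter filter, limma-voom, only the groups compared, Luciferase alone or Control siRNA alone, and 0 to 2 leaving out each library. With upper quartile scaling, and against replicate 1 of the controls alone, the 1 call was ORC3 in place of MCM10. For the comparisons with 0 called members, DSCC1 siRNA had 1 (TYMS, -0.87, adjusted p = 0.0433) against replicate 1 of the controls alone, VRTN siRNA had 1 with DESeq2 and 1 with limma-voom, SALL4 against VRTN siRNA had 1 with limma-voom and 0 to 4 leaving out each library, and DSCC1 against SEPHS1 siRNA had 3 with no filter, 3 with a replicate block and 2 with DESeq2. The members' median log2 fold change moved for SEPHS1 siRNA (0.02) to -0.02 with a replicate block, -0.05 against Luciferase alone and -0.03 against replicate 2 of the controls alone. Leaving out 1 library, it ranged up to 0.13 for DSCC1 against SEPHS1 siRNA and from 0.03 to 0.11 for DSCC1 siRNA. The cause was not tested. Same-numbered libraries did not deviate together throughout: over 36 pairs r ran from -0.32 to 0.36, with a median of 0.03 and 9 above 0.1. The highest was SALL4 with VRTN siRNA in replicate 3 (0.36), both harvested at 48 h, then Luciferase with Control siRNA (0.34). Luciferase replicate 1 gave 0.29 with SALL4 and 0.27 with VRTN siRNA, and replicate 2 gave -0.32 and -0.21. With 2 libraries in a control group, their deviations from the group mean are mirror images. The values of a control group for replicates 1 and 2 are therefore not independent. Those of Luciferase with Control siRNA are equal by construction and enter the 36 pairs as 2. The numbers were not taken to pair samples in the main fit, and a replicate block was among the alternatives. Depth limits the low genes most: ORC5 had 41 to 235 counts per library.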
